A study of Mus musculus with 2 samples.

Results

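In immediate neuronal precursors of the mouse olfactory epithelium, 1573 chromosome domains of 120 to 700 kb held the start of exactly 1 protein-coding gene, among 7391 domains in all. A domain was the interval between the midpoints of neighbouring boundaries of the deposited list on chromosomes 1 to 19. Only the 6640 domains over 120 kb and under 700 kb were considered, and a gene start was the 5′ end of a protein-coding gene record of GENCODE M21 on GRCm38. The members were thus chosen by the measured boundary positions together with the annotated gene starts. Their lengths, contents and border scores are therefore given as descriptions, without a test.

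Chromosome contacts were measured by in situ Hi-C, a method in which DNA ends lying close together in fixed nuclei are ligated. The enzyme used to cut the DNA was DpnII. The donors were FVB/NTac mice, pups of mixed sex, and fluorescence sorting of their olfactory epithelium gave the primary precursors, which were fixed in 1% formaldehyde. The labels' protocol names a gated fraction from mice with an Ngn1-GFP reporter (Ngn1 is Neurog1), while the sample labels list no modification and no treatment. There were 2 biological replicates of 1 group, of 2200000 and 2100000 cells, and nothing says how many pups each pooled. Their contacts were combined before boundaries were called, so no value here has a replicate error and the depth behind the calls is unknown. The cell identity rests on the labels, since a boundary list holds no expression.

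Domains are stretches of chromosome whose sequences contact each other more than they contact the next stretch. At mammalian boundaries, loops extruded by cohesin are commonly halted by the DNA-binding protein CTCF, above all where its motifs on both sides point towards each other. Promoters and active transcription also lie at many boundaries. Enhancers and the gene they act on usually share a domain, and genes of development often lie in long stretches without other genes. In the olfactory epithelium, globose basal cells give rise to immediate neuronal precursors, which divide and then differentiate into olfactory sensory neurons.

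Each boundary is a 5 kb interval with a class and a score given by the authors, and a higher score marks a stronger depletion of contacts across it. Scores in the list start at 0.2, and boundaries of 0.5 or more are classed as strong. Of the 7410 boundaries on chromosomes 1 to 19, 53.9% were strong and the median score was 0.548.

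The sequences at borders of Fezf1, Hey1 and Robo1 are printed first, because these genes lay between strong borders with a CTCF motif at each end, pointing into the domain. Fezf1 encodes a zinc finger repressor needed for olfactory axons to reach the brain. Its domain, chr6:23162501-23467500 (GRCm38), had borders with scores of 1.47 and 1.70, the highest weaker score of all 1573. Hey1 encodes a basic helix-loop-helix repressor that answers Notch signals, and its domain, chr3:8512501-8917500, had scores of 1.24 and 1.35. Robo1 encodes an axonal receptor for Slit proteins, and its domain, chr16:72212501-72607500, had scores of 1.04 and 1.03. Motif matches were exact matches to the CTCF core consensus of 12 bases, searched on both strands in the border interval and 10 kb on each side. Each line gives 52 bases 5′ to 3′ on the strand of the match, with the match in capitals.
Fezf1 left border, plus strand, chr6:23160237-23160288: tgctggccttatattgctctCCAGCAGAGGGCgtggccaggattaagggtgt
Fezf1 right border, minus strand, chr6:23457927-23457978: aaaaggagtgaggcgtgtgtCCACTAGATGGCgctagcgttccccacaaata
Hey1 left border, plus strand, chr3:8513848-8513899: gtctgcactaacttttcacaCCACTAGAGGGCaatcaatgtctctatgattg
Hey1 right border, minus strand, chr3:8913927-8913978: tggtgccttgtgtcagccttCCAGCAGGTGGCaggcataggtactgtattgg
Robo1 left border, plus strand, chr16:72218192-72218243: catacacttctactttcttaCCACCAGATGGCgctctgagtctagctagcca
Robo1 right border, minus strand, chr16:72605239-72605290: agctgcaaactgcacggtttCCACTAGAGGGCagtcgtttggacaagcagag

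The left border of Fezf1 held the same 52 bases a second time on the same strand, with the match at chr6:23167609-23167620. The matches at these borders lay between 1.37 and 9.55 kb from the middle of the border interval. Among all 1573 domains, 63 (4.01%, Wilson 95% interval 3.14 to 5.09%) had such a pair pointing inward, against 2.83% of all 6640 domains of the length range. The share was 0.908% with no gene start and 3.22% with at least 2 (2.68 to 3.87%, which overlaps the interval of the members). A pair pointing outward was found in 50 (3.18%), against 3.22% of all 6640, 1.21% with no start and 4.22% with at least 2. Where both borders were strong, the counts were 34 of 449 inward (7.57%) and 29 outward (6.46%), and where both were weak, 4 and 1 of 277. A match lay in 11.3% of all 479191 windows of 25 kb, forward in 5.86% and reverse in 6.04%. The left borders of the members held a forward match in 18.1% of cases and a reverse match in 15.1%, and the right borders a reverse match in 17.6% and a forward match in 15.3%. A match is a description of the sequence and not a measured binding site.

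Domains with a single gene start were bordered more strongly than domains with no start and less strongly than domains with several. Strong borders on both sides enclosed 449 of the 1573 (28.5%, Wilson 95% interval 26.4 to 30.8%), against 30.5% of all domains of the length range. The share was 7.81% among the 1652 domains with no start and 42.3% among the 3415 with at least 2. It was 38.2% with 2 starts, 43.3% with 3 and 38.4% with 10 or more, so the value for a single start lay between those for 0 and for 2. Weak borders on both sides were found in 277 (17.6%), against 19.9% of all domains of the length range, 42.2% with no start and 10.1% with at least 2. The remaining 847 (53.8%) had a strong border on 1 side. These intervals cover counting error only and take domains as independent, although neighbours share a border.

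Both the weaker and the stronger border of a domain followed this order. The median score of the weaker border was 0.356 (quartiles 0.261 and 0.528) for a single start, 0.264 for no start and 0.446 for at least 2. The stronger border had medians of 0.894, 0.589 and 0.959. For the 357 domains with 10 or more starts alone its median was 0.889, not above that of the members. Weak borders on both sides were found in 15.1% of these crowded domains (11.8 to 19.2%, which overlaps the 15.8 to 19.6% of the members). The order held at each domain length: the share with strong borders on both sides was 25.7, 30.3, 29.6 and 28.3% for members of 120 to 200, 200 to 300, 300 to 450 and 450 to 700 kb. In the same classes it was between 5.67 and 9.91% for domains with no start and between 31.4 and 49.8% for those with at least 2. It also held within each of 4 classes of GC content, split at the quartiles of all domains of the length range. In the class with the lowest GC the shares were 4.00% with no start, 14.6% with 1 and 18.4% with at least 2, and in the class with the highest 16.4, 39.9 and 48.8%. The median GC content was 42.4% with a single start, 39.5% with none and 44.1% with at least 2, and the part of GC content in the scores was not tested. Across the members, GC content and the weaker score had a Spearman's rho of 0.27, and the scores of both borders of a domain one of −0.14. These values are descriptions over 1573 domains of 1 pooled list.

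**Figure D1:**
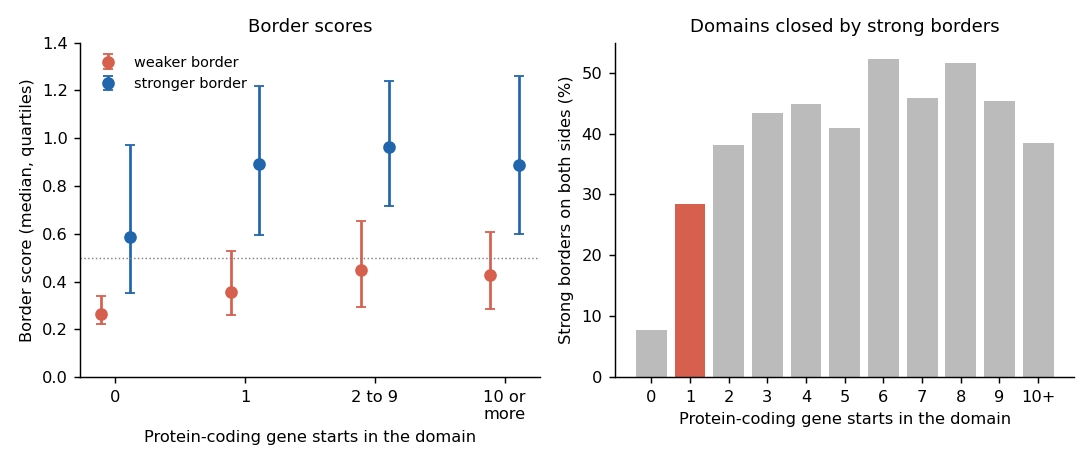
Left, the score of the weaker and of the stronger border of domains of 120 to 700 kb (points, medians; bars, quartiles; dotted line, a score of 0.5, the lower end of the strong class) by number of protein-coding gene starts; right, the share of domains with strong borders on both sides, with the domains of a single start in red. The 1573 domains with 1 start (medians 0.356 and 0.894, 28.5% closed by strong borders) sit between those with 0 starts (7.81%) and those with 2 (38.2%).

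Both scores were above 1 in 32 members. After Fezf1 and Hey1, the highest weaker scores belonged to Chl1, an adhesion gene of the L1 family (1.46 and 1.23), Zfp516 (1.22 and 1.42) and Bmpr1b (1.95 and 1.22). The lipid raft gene Rftn1 (1.18 and 1.12), the phospholipid transfer gene Pitpnm2 (1.21 and 1.09), the kinase gene Dapk1 (1.09 and 1.37), the Arf regulator gene Agap1 (1.09 and 1.12) and Sh3bp4 completed the first 10. Their domains were between 210 and 450 kb long. Fezf1 and Hey1 were 3.32 and 3.90 kb long and stood 85.9 and 155 kb from the nearer border, while the other 8 genes were between 84.7 and 443 kb long. The nearest other protein-coding start lay 937 kb from that of Chl1 and 78.2 kb from that of Pitpnm2, with the others between.

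The members spanned 477 Mb, 20% of the sequence between borders. Their median length was 270 kb (quartiles 190 and 385 kb, range 125 to 685 kb), against 265 kb for all domains of the length range, 295 kb with no start and 250 kb with at least 2. Length and weaker score had a Spearman's rho of 0.011. The longest were those of the growth factor gene Fgf9 and the atypical cadherin gene Fat3, each 685 kb, and of Frmd4a, Prr30 and Slc22a22, each 680 kb. The shortest, each 125 kb, included those of Gtf2ird1, Ece1, Txndc8, Tnfaip8l3 and Phlpp1. The length limits cut through a continuous distribution: 21 members had 125 kb (median weaker score 0.262), and 26 domains with a single start had 120 kb and fell just outside (0.323). Between 650 and 685 kb lay 25 members (0.317), and 25 domains of 700 to 745 kb lay just outside (0.359). In all, 1807 domains of any length had a single start, of which 103 were too short and 131 too long. Of the 6640 domains of the length range, 23.7% held a single start, and by chromosome the share ran from 14.4% on chromosome 11 to 29.7% on chromosome 15.

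The 1573 sole genes were 7.56% of the 20807 protein-coding genes of chromosomes 1 to 19 and were mostly long. Their median length was 104 kb (quartiles 31.3 and 235 kb), against 16.5 kb for the genes that shared a domain of the length range. Of genes under 10 kb 3.02% were alone, of those of 10 to 30 kb 2.67%, of 30 to 100 kb 7.63%, of 100 to 300 kb 28.6%, and of 300 kb or more 52.9% (286 of 541). The next protein-coding start, inside or outside the domain, was a median of 165 kb away, against 17.7 kb for genes that shared a domain, a distance which the rule in part fixes. For 1128 sole genes (71.7%) it was over 100 kb away, and for 9 within 10 kb, across a border. A gene with a model name only (Gm and a number, Rik, or a clone or accession name such as BC and a number) was the sole gene of 80 domains (5.09%).

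**Figure D2:**
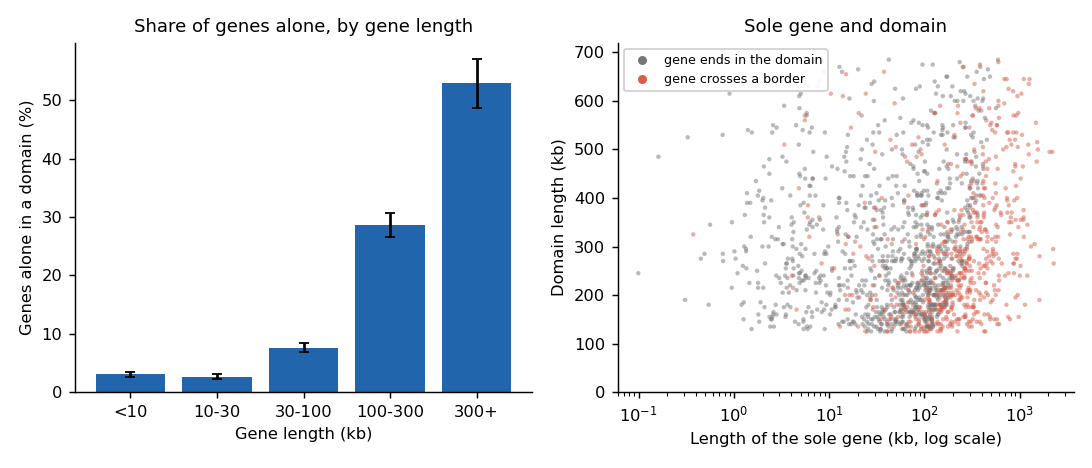
Left, the share of protein-coding genes alone in a domain by gene length (bars; error bars, Wilson 95% intervals, counting error only); right, the length of each sole gene (log scale) against its domain's length, 1 point per domain, with genes that cross a border in red. The share is 3.02% for genes under 10 kb and 52.9% for those of 300 kb or more, and the genes that cross a border gather at the long end.

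Many sole genes ran past the end of their domain. The gene ended inside the domain in 953 cases (60.6%) and ran across the border ahead in 620 (39.4%), against 12.1% of genes that shared a domain. Among genes of 300 kb or more, 85.7% of the sole genes crossed a border, against 69.0% of the 255 others. In 114 cases the gene crossed at least 2 borders. Lsamp, which encodes a neuronal adhesion protein, was 2197 kb long and crossed 6; its domain chr16:39967501-40462500 held its first 21.8%. The receptor phosphatase gene Ptprd (2271 kb) crossed 4, the adhesion gene Cntnap2 (2245 kb) 5, the lipoprotein receptor gene Lrp1b (2058 kb) 4 and the neurexin gene Nrxn3 (1612 kb) 4. The borders of genes that crossed at least 2 were lower: the median score was 0.444 behind the start and 0.366 ahead, against 0.591 and 0.596 for genes that ended in their domain. The sole gene covered a median of 31.5% of its domain, over 50% in 552 domains and under 10% in 450. Strong borders on both sides were found in 28.6% of the first class, 23.1% of the second and 32.7% of the 571 domains between them.

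Sole genes often started close to a border and were transcribed away from it. The start lay a median of 48.2 kb from the nearer border, against 56.7 kb for genes that shared a domain, and within 10 kb in 320 cases (20.3% against 14.4%). In 114 cases it lay inside a border interval, where the side it is counted on turns on the midpoint. Transcription ran away from the nearer border in 963 cases (61.2%), against 50.8% of genes that shared a domain. Domains were also split into 10 equal parts counted along transcription. The part next to the border behind the start held 351 starts (22.3%) and the part next to the border ahead 162 (10.3%), against 13.8% and 12.5% of genes that shared a domain. The border behind the start and the border ahead had similar scores, with medians of 0.572 and 0.549. Sole genes were also longer (medians of 104 and 16.5 kb), and the part of gene length in this placement was not tested.

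**Figure D3:**
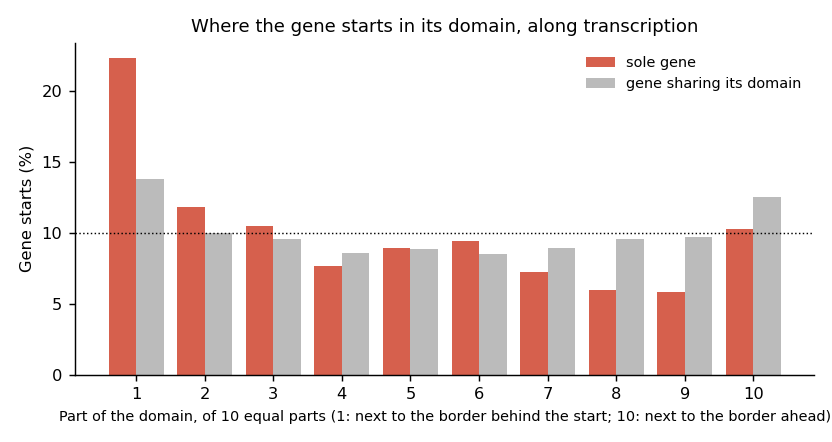
The place of the gene start in its domain, in 10 equal parts counted along transcription from the border behind the start, as a share of sole genes (red, n = 1573) and of genes sharing a domain of the length range (grey, n = 16823); the dotted line marks an even 10%. Part 1 holds 22.3% of sole genes and 13.8% of the others.

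The domains were not free of other annotated gene starts. A long noncoding gene started in 951 of them (60.5%, Wilson 95% interval 58.0 to 62.8%), against 59.8% of all domains of the length range, 43.0% of those with no protein-coding start and 67.7% of those with at least 2. Pseudogenes lay in 56.8% of members and in 60.3% of all domains of the length range, and small RNA genes in 37.7 and 43.1%. No other annotated start of these kinds was found in 215 members (13.7%, against 11.7%). The median share of repeats was 28.5%, against 34.9% in domains with no start and 29.6% in those with at least 2. Of the 2759 borders of members, 30.4% overlapped an exon of a protein-coding gene, 16.3% lay in an intron and 53.3% were intergenic, against 35.7, 13.6 and 50.7% of all boundaries of chromosomes 1 to 19.

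The promoters of sole genes were slightly richer in CpG. From 250 bases before to 50 after the start, the ratio of observed to expected CpG had a median of 0.633, against 0.560 for genes that shared a domain and 0.540 for all genes, and it exceeded 0.6 in 829 (52.7%), against 46.9% and 45.5%. Of these 829 sole genes 26.5% started within 10 kb of a border, against 13.4% of the 744 with a lower ratio, and 31.5% lay between strong borders, against 25.3%. Median domain GC was 43.1 and 41.6% in these classes.

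The range is shown by 5 promoters whose RefSeq start (GRCm38.p6) lies within 3 bases of the GENCODE start, chosen after their values were seen. RefSeq promoters were matched to 1139 of the 1573 genes by symbol, chromosome and strand, and 957 of these starts lay within 500 bases. Sh3bp4, a gene of receptor trafficking, is among the 10 sole genes with the highest weaker score (both borders 1.09). Gadd45g encodes a growth arrest protein of the precursor list (scores 1.18 and 0.264), and Ncam2 an adhesion protein of mature olfactory neurons (1.59 and 0.250). Col3a1, the collagen gene of stromal cells (0.208 and 0.364), and Slc22a22, of an organic anion transporter (0.343 and 1.32), have no CpG in these bases. Each line gives the 250 bases before the start, 5′ to 3′ on the strand of the gene, with CG in capitals.
Sh3bp4, plus strand, chr1:89070165-89070414: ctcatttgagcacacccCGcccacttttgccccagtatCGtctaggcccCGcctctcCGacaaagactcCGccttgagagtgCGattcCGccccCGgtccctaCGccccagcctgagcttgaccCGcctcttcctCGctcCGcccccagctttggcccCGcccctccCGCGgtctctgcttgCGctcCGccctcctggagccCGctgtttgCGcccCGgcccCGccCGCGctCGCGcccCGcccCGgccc
Gadd45g, plus strand, chr13:51846425-51846674: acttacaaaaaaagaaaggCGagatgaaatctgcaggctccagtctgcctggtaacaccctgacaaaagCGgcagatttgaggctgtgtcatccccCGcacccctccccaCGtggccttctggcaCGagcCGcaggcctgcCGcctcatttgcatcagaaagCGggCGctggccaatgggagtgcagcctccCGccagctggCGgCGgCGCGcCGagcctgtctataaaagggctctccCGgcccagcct
Ncam2, plus strand, chr16:81200447-81200696: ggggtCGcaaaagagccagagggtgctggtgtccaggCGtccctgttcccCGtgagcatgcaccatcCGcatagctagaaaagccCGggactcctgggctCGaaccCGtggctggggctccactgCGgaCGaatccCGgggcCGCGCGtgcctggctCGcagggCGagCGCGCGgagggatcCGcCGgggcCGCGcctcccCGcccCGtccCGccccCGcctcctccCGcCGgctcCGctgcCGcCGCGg
Col3a1, plus strand, chr1:45311288-45311537: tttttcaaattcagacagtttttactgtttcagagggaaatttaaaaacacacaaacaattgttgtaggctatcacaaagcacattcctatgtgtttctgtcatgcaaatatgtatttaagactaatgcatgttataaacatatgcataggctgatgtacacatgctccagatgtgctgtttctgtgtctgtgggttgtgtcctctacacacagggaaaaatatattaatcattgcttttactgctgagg
Slc22a22, minus strand, chr15:57477626-57477875: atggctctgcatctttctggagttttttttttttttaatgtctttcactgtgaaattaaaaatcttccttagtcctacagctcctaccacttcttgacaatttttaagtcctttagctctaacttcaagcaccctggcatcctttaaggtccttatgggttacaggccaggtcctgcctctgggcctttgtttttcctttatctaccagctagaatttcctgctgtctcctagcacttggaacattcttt

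The 3 CpG-rich stretches hold 27 (Sh3bp4), 16 (Gadd45g) and 32 (Ncam2) CG pairs, at a GC content of 72.4, 62.0 and 75.2%. That of Col3a1 has a GC content of 35.2% and that of Slc22a22 one of 40.4%. The start of Ncam2 lay 8.20 kb from its strong border and that of Gadd45g 9.18 kb, while Sh3bp4, Col3a1 and Slc22a22 started 122, 86.0 and 69.9 kb from the nearer border.

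Gene classes differed widely in how often their members were alone. Of 31 lists, 13 had a Wilson 95% interval above the 7.56% of all genes, 11 an interval below it, and 7 an interval that held it. The lists and the members were chosen with earlier results of these data known, so these intervals describe the lists and are not a test, and some genes are in several lists. Of the 9 alternatives, merging boundaries within 50 kb left the members and list shares as they were. Over all 9, 6 of the 13 lists kept their interval above the share of all genes in each. These were the homeobox, Ebf to Tfap2, receptor and antagonist, axon guidance, channel and neurotransmitter receptor lists. Of the 11 below, the olfactory receptor list alone stayed below in each, while the share of all genes was 2.65% with strong boundaries alone and 2.99% with long noncoding genes counted. In all, 301 members belonged to at least 1 list.

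**Figure D4:**
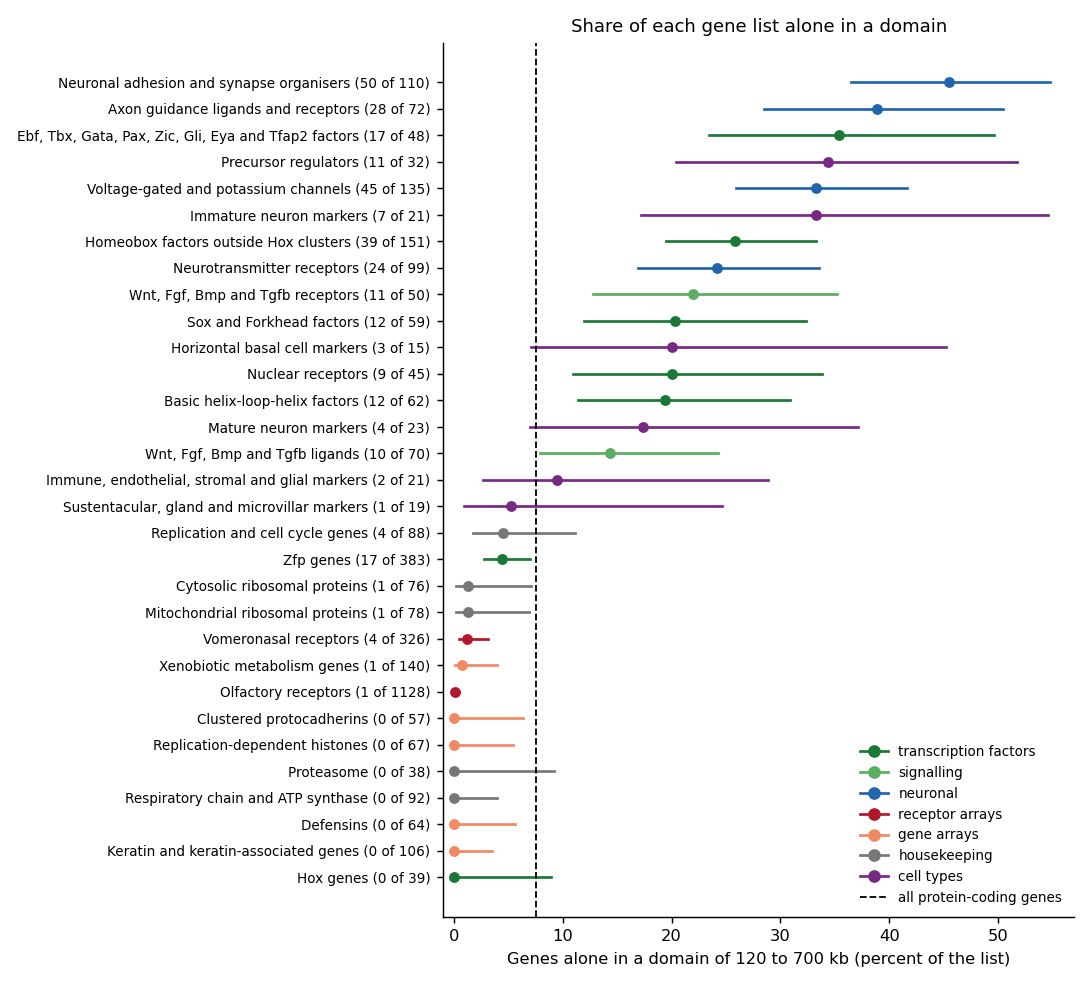
The share of each of 31 gene lists whose members are alone in a domain of 120 to 700 kb (points; bars, Wilson 95% intervals, counting error only), with the number alone and the number of genes beside each name, coloured by kind of list. The dashed line is the 7.56% of all protein-coding genes; with every boundary as a border, neuronal adhesion genes (45.5%) are highest, and 7 lists have no gene alone.

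Transcription factors of development were often alone, while none of the clustered Hox genes was. Of 151 homeobox genes outside the Hox clusters 39 were alone (25.8%, Wilson 95% interval 19.5 to 33.3%), and of 39 Hox genes none (0 to 8.97%). The Hox interval held the 7.56% of all genes. Hox starts are clustered and members are over 120 kb long, so the rule in part fixes this count. The homeobox genes outside the Hox clusters are short, with a median of 10.6 kb for those alone. Among genes under 100 kb 22.6% of the homeobox list was alone, against 4.14% of all genes. Strong borders on both sides enclosed 16 of the 39 (41.0%). High weaker scores were those of Tgif1, a repressor in Smad signalling (1.13 and 0.955), Cux2, a gene of upper cortical neurons (1.07 and 0.941), and Dbx1, a gene of spinal interneurons (0.906 and 1.03). The Ebf, Tbx, Gata, Pax, Zic, Gli, Eya and Tfap2 genes were alone in 17 of 48 cases (35.4%, 23.4 to 49.6%), among them the Hedgehog effector gene Gli2 (0.832 and 1.16), the muscle and neural crest regulator Pax7 (0.831 and 1.10) and Tbx2 (0.770 and 0.769).

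Sox and Forkhead genes were alone in 12 of 59 cases (20.3%) and basic helix-loop-helix genes in 12 of 62 (19.4%). With strong boundaries alone the Sox and Forkhead share was 3.39% (0.935 to 11.5%), an interval that held the 2.65% of all genes. Their intervals also held the share of all genes with long noncoding genes counted (3.39% against 2.99%) and without starts within 10 kb of a border (11.9% against 6.02%). The basic helix-loop-helix interval did so with long noncoding genes counted (4.84%, 1.66 to 13.3%). Between strong borders lay 2 of the former, Foxb1 (0.760 and 1.30) and Sox2 (1.10 and 0.603), and 6 of the latter. These 6 were Hey1, the proneural gene Neurog2 (0.930 and 0.825), Twist2 (0.997 and 0.692), the circadian repressor gene Bhlhe40 (1.00 and 0.609), Olig3 and Tcf21. Nuclear receptor genes were alone in 9 of 45 cases (20%), and 6 of the 9 had weak borders on both sides, such as Esrrg (0.347 and 0.258). The retinoid partner receptor gene Rxra (1.22 and 0.945) lay between strong borders. With strong boundaries alone the nuclear receptor share was 2.22% (0.393 to 11.6%), against 2.65% of all genes. Genes named Zfp, many of which lie in arrays of zinc finger genes, were alone in 17 of 383 cases (4.44%, 2.79 to 6.99%), with Zfp516 highest (1.22 and 1.42).

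Ligand genes of the Wnt, Fgf, Bmp, Tgfb and Hedgehog families were alone in 10 of 70 cases (14.3%, 7.95 to 24.3%). The interval held the share of all genes with strong boundaries alone (2.86%, 0.787 to 9.83%, against 2.65%) and without starts within 10 kb of a border (10.0%, 4.93 to 19.2%, against 6.02%). Fgf12, an intracellular member of its family (1.07 and 1.17), and Wnt4 (1.30 and 0.967) lay between strong borders, and Wnt16 (0.924 and 0.479) and Wnt2 (0.825 and 0.472) had a strong border on 1 side. Receptor, antagonist and modulator genes of these pathways were alone in 11 of 50 cases (22.0%, 12.8 to 35.2%). Among genes under 100 kb the share was 25.0%, against 4.14% of all genes, and among longer ones 1 of 10, against 34.1%. Strong borders on both sides enclosed 4 of the 11, among them the Bmp receptor gene Bmpr1b (1.95 and 1.22), the Wnt antagonist gene Sfrp1 (0.728 and 1.37) and the Bmp antagonist gene Nog (1.00 and 0.533).

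Neuronal surface and excitability genes were also often alone. Axon guidance genes were alone in 28 of 72 cases (38.9%, 28.5 to 50.4%), genes of voltage-gated and potassium channels in 45 of 135 (33.3%, 25.9 to 41.6%), and neurotransmitter receptor genes in 24 of 99 (24.2%, 16.9 to 33.5%). Many are long, and among genes of 100 kb or more the shares were 70.6, 61.4 and 53.1%, against 34.1% of all genes of that length. Among those under 100 kb they were 10.5, 19.8 and 10.4%, against 4.14%. The part of gene length in these shares was not tested beyond this split. Robo1 was followed among guidance genes by the ephrin receptor gene Ephb2 (1.66 and 0.950) and the plexin genes Plxna4 (0.680 and 1.69) and Plxna2 (0.732 and 0.578). Among channels the calcium channel gene Cacna1e (1.01 and 1.70), the potassium channel genes Kcng1 (1.48 and 0.890) and Kcnk13 (0.815 and 1.66) and the calcium channel subunit gene Cacng5 (0.831 and 1.12) were highest. Strong borders on both sides enclosed 18 of the 45 channel genes (40%) and 6 of the 28 guidance genes (21.4%). Among transmitter receptors, the adrenergic receptor gene Adra1d (0.983 and 2.11), the GABA receptor gene Gabbr2 (0.925 and 1.11), the nicotinic gene Chrna7 (1.19 and 0.901) and the dopamine receptor gene Drd1 (0.662 and 0.743) led.

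Neuronal adhesion and synapse organiser genes were alone in 50 of 110 cases (45.5%, 36.5 to 54.8%), the highest share of the 31 lists, and were weakly bordered. With strong boundaries alone as borders the share was 5.45% (2.52 to 11.4%), which held the 2.65% of all genes and lay below that of precursor regulators (25.0%) and channels (17.8%). With long noncoding genes counted it was 18.2%, below the 23.8% of immature neuron markers. Only 2 of the 50 (4.00%) lay between strong borders, Igsf3 (0.859 and 1.35) and Cadm1 (0.795 and 0.504), against 28.5% of all members. Of the 50, 15 had weak borders on both sides and 38 crossed a border. Their domains had a median GC content of 38.5%, against 42.4% for all members. Among genes of 100 kb or more, 1 of 39 adhesion genes lay between strong borders (2.56%), against 228 of 770 other sole genes (29.6%). In domains with a GC content under 40%, the counts were 0 of 32 and 54 of 342 (15.8%). The list does not hold every adhesion gene. Chl1, with strong borders (1.46 and 1.23), a length of 240 kb and a domain GC content of 38.2%, is outside it. It was therefore counted among the other genes in both classes. Within these classes the adhesion genes still differed from the others: the 50 had a median length of 373 kb, and in the domains with a GC content under 40% the median GC was 37.1% for adhesion genes and 38.8% for the others. The part of gene length and of GC content in the low share was not tested.

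Genes of large arrays were almost never alone. Genes of an array start close together and members are over 120 kb long, so the rule in part fixes these counts. A single olfactory receptor gene of 1128 was alone (0.0887%, 0.0157 to 0.5%), Olfr1402 on chromosome 3. Its domain, chr3:97347501-97602500, lay between strong borders (0.813 and 0.908), held no other annotated start and had a start with little CpG (ratio 0.0848). Of 326 vomeronasal receptor genes 4 were alone (1.23%), namely Vmn2r58, Vmn2r74, Vmn2r73 and Vmn2r120, none of them between strong borders. Of 140 genes of xenobiotic metabolism only the sulfotransferase gene Sult1c2 was alone (0.311 and 0.796). No gene was alone among 106 keratin and keratin-associated genes, 57 clustered protocadherins, 64 defensins and 67 replication-dependent histone genes. The highest shares that their Wilson intervals allow were 3.50, 6.31, 5.66 and 5.42%.

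Housekeeping genes were seldom alone, but the intervals of the proteasome and the replication and cell cycle lists held the 7.56% of all genes. Few of these genes reach 100 kb, and of all genes under 100 kb 4.14% were alone. The intervals of both ribosomal lists (up to 7.08 and 6.91%) held that share. Of replication and cell cycle genes under 100 kb 3.57% were alone. None of 92 respiratory chain and ATP synthase genes (up to 4.01%) and none of 38 proteasome genes (up to 9.18%) was alone. Rps12 was the sole case of 76 cytosolic ribosomal protein genes (0.370 and 1.18) and Mrps9 of 78 mitochondrial ones (0.532 and 0.247). Rps12 started 0.225 kb from the midpoint of its border, and the next protein-coding start lay 9.71 kb away, so its place turns on a single boundary call. Of 88 replication and cell cycle genes 4 were alone (4.55%, 1.78 to 11.1%): the cell cycle inhibitor gene Cdkn1c, the kinase gene Plk2, the phosphatase gene Cdc14a and the cyclin gene Ccnd2.

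Regulators of the precursor state were alone in 11 of 32 cases (34.4%, 20.4 to 51.7%). None of the 11 had weak borders on both sides, against 17.6% of all members. The same held for the few sole genes of the immature neuron, horizontal basal cell and replication and cell cycle lists. Without starts within 10 kb of a border the share of precursor regulators alone was 6.25% (1.73 to 20.1%), against 6.02% of all genes. With long noncoding genes counted it was 3.12% (0.554 to 15.7%), against 2.99%. Strong borders enclosed 5 of the 11 (45.5%), against 28.5% of all members. Insm1, a zinc finger gene that moves progenitors to their final division, lay in chr2:146217501-146442500 between scores of 0.818 and 0.992. The others were Cdkn1c (0.811 and 0.983), Ebf2 (1.43 and 0.720), Ebf1 (2.08 and 0.660) and Sox2 (1.10 and 0.603); Ebf1 and Ebf2 encode Olf/Ebf factors that bind olfactory gene promoters. A strong border on 1 side was found for Sox11 (1.84 and 0.430), Emx2 (1.99 and 0.395), Tcf4 (0.875 and 0.337), Sox4 (1.41 and 0.294), the receptor gene Kit (0.782 and 0.280) and Gadd45g (1.18 and 0.264). Ebf2 started 25.8 kb from the nearer border, and the starts of the other 10 lay from 0.856 kb (Tcf4) to 11.4 kb (Cdkn1c) from it. Ebf3 also had its domain alone, at exactly 120 kb (0.633 and 1.84), and fell just outside the length limit. Neurog1, for which the labels' protocol names a GFP reporter, shared its domain with the chemokine gene Cxcl14 (1.41 and 3.57). Whether such a reporter affects contacts was not tested. Neurod1 shared a domain with Cerkl (0.245 and 0.761), and Lhx2 with Dennd1a (0.307 and 0.968), while Dll3 lay among 16 gene starts and Dll1 among 14.

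Markers of immature neurons were alone in 7 of 21 cases (33.3%, 17.2 to 54.6%). Without starts within 10 kb of a border, and with strong boundaries alone, the share was 4.76% (0.846 to 22.7%), against 6.02 and 2.65% of all genes. The chemokine receptor gene Cxcr4 lay between strong borders (0.715 and 1.71), and the RNA-binding protein gene Elavl4 (1.99 and 0.454), the deacetylase gene Hdac9 (0.692 and 0.431) and the stathmin gene Stmn2 (0.407 and 1.24) each had 1. Markers of mature neurons were alone in 4 of 23 (17.4%, 6.98 to 37.1%), namely Car2, Slc17a6, Slc24a4 and Ncam2. Of other cells the sort could hold, horizontal basal cell markers were alone in 3 of 15 cases (Trp63, Itga6 and Sox9), sustentacular, gland and microvillar markers in 1 of 19 (Sox9), and immune, endothelial, stromal and glial markers in 2 of 21 (Kdr and Col3a1). These last 4 intervals held the share of all genes. Position alone was measured, so none of these counts says whether a gene was transcribed.

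**Figure D5:**
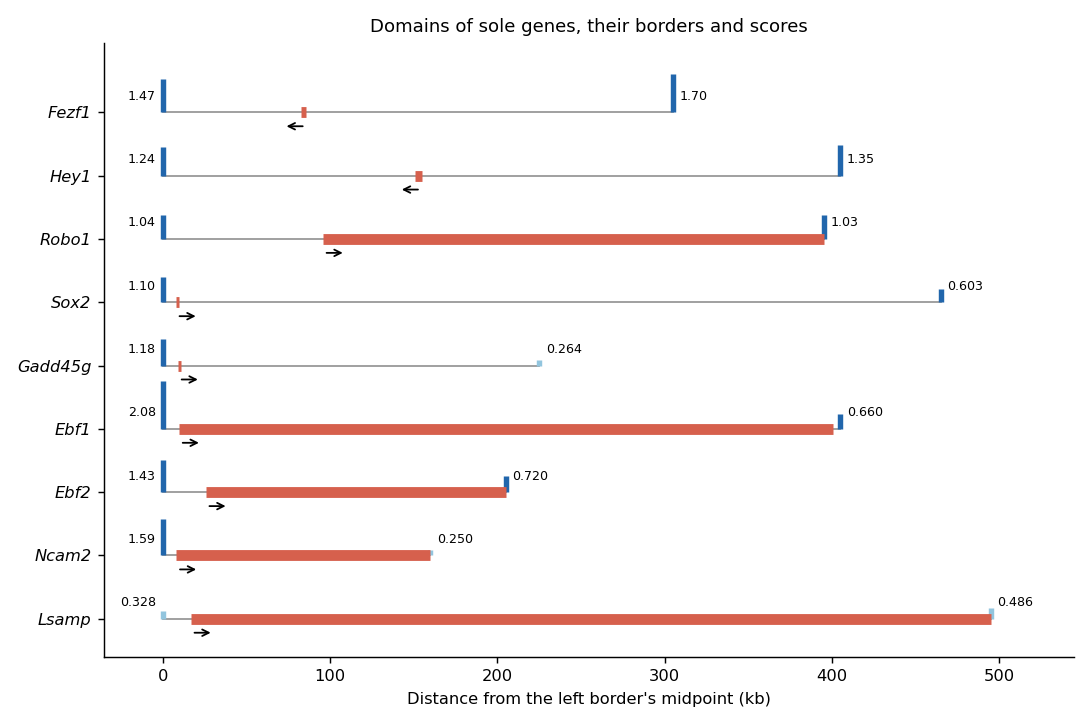
The domains of 9 sole genes to scale, from the left border's midpoint (horizontal axis, kb), with the part of the gene inside the domain in red and an arrow at its start in the direction of transcription. Vertical bars at the ends stand for the border scores printed beside them (dark blue, strong; light blue, weak): Fezf1 takes up 1.09% and Hey1 0.962% of domains with 2 high borders, Ebf1 fills 96.5% of its domain, and Lsamp runs out of a domain with 2 weak borders.

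Some members were neighbours along the chromosomes. A neighbour could be a domain of any length, and members were 1573 of all 7391 domains. Whether they were neighbours more often than this share alone would give was not tested. Of the 1573, 906 stood singly, and the others formed 280 runs of at least 2 neighbouring domains, with 71 runs of 3, 10 of 4, 4 of 5 and 1 of 6. The longest run, of 6 domains over 1505 kb of chromosome 6, held Cped1, Wnt16, Fam3c, Ptprz1, Aass and Fezf1 in this order, with border scores of 0.214, 0.924, 0.479, 0.465, 0.311, 1.47 and 1.70. The domains of Stmn2 and Hey1 also neighbour each other. Stmn2 started 3.14 kb before their shared border (1.24), and 6.01% of its 52.2 kb lay in its own domain, so most of its body lay in that of Hey1.

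A few neighbouring members came from the same gene family, each gene with a domain to itself. Of 387 pairs of neighbouring members, 14 (3.62%) had names of the same stem. This was a lower share than the 262 of 4555 pairs (5.75%) of neighbouring genes with starts in neighbouring domains. This count was made after the values were seen. The sodium channel genes Scn1a, Scn9a and Scn7a lay in 3 successive domains, with shared borders of 1.36 and 0.384. The Iroquois homeobox genes Irx3, Irx5 and Irx6 were separated by borders of 0.234 and 0.434, and Irx1 and Irx2 by a border of 0.317. The potassium channel genes Kcnj16 and Kcnj2 shared a border of 0.623, and Klf5 and Klf12 a strong border of 1.30.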

How the data were processed

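In situ Hi-C of 2 replicates of 1 group was combined into a contact matrix, and boundaries were called on it, per the series' design text, on GRCm38, per the submitters' processing notes. The sources used here do not give the caller, window or cutoffs. In the deposited list each 5 kb interval has a class and a score. This score comes from the authors and only describes or ranks boundaries within the list. Contact matrices and insulation tracks were not analysed here, and 0 columns of per-sample values were left out. Pooling hides the spread between replicates.

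Domains and gene starts were computed with Python 3.11.15, pandas 2.3.3 and pysam 0.24.0 from GENCODE M21 and the GRCm38.p6 sequence, and the steps were tested on simulated data. The start was the 5′ end of the gene record, so alternative promoters were considered only as an alternative. Members, lists and the naming rule were chosen with earlier results of these data known. The rule named the 10 sole genes with the highest weaker score, those of the 5 longest and 5 shortest domains, the 5 longest genes, up to 4 of each list by weaker score, all sole precursor regulators and the longest runs. Members of short counts, the family pairs and the printed promoters were named after their values were seen. Shares carry Wilson 95% intervals. The alternatives were strong boundaries alone, merged boundaries, inner interval edges, all transcripts, no model-name genes, long noncoding genes added, no length limits, chromosome X added, and starts near borders left out. Some genes that the rule names are left out of the text.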

Additional observations from a re-analysis of the deposited data

How the results depend on the processing

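The number of lists with an interval above all genes was 13, and between 9 and 15 under the 9 alternatives. The 7 that lost this in at least 1 setting were the Sox and Forkhead, basic helix-loop-helix, nuclear receptor, ligand, adhesion, precursor regulator and immature neuron lists. With strong boundaries alone as borders, 551 domains held a single start, 2.65% of genes were alone, and the medians were 305 kb for length and 0.683 for the weaker score. With long noncoding genes counted as well there were 1012 members, 2.99% of genes were alone, the sole gene had a median of 61.7 kb, the weaker score was 0.304 and 16.8% lay between strong borders. Without length limits 8.68% of genes were alone, with a weaker score of 0.341. Without starts within 10 kb of a border the share alone was 6.02%, the weaker score 0.371 and the share between strong borders 31.2%. Without genes named Gm and a number or Rik the share alone was 8.57%, and with all transcript starts the median gene length was 135 kb. By construction, these settings change which boundaries, genes or domains are counted. Inner interval edges and chromosome X left the number, the median length and the shares near the values reported (1582 and 1696 members). Merging boundaries within 50 kb changed none of these values, and the shortest domain with a single start was 60.0 kb. With strong boundaries alone 19 of 31 list shares left their interval, with long noncoding genes 18, and without starts near a border 8. No paired analysis was possible because boundaries were called on the combined contacts of both replicates, and for the same reason no replicate could be left out. The depth behind the calls is unknown, so a domain that seems to hold a single start may hold an uncalled boundary.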
